A study of Homo sapiens with 8 samples.

Results

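The genes described here are 9 components of innate immune sensing and of the interferon response, read in the CHP212 neuroblastoma cell line. They are TLR3, TRIM22, IFI16, DDX58, ISG15, IFIT1, IFIT3, MX1 and OAS1. They were taken by name from a table of 25369 genes, and all 9 had enough reads to be tested among 15879 genes. Poly(A) RNA was sequenced from unmodified cells (WT) and from cells with the gene FAM193A knocked out (KO). Each genotype received 10 uM Nutlin-3a or, as vehicle, 0.2% DMSO for 12 h, which gave 4 groups of 2 libraries described as independent biological replicates. Nutlin-3a is a small molecule that sits in the pocket where MDM2 grips p53 and so frees p53 from this ubiquitin ligase. The labels name a single KO population (1 line), so loss of FAM193A and other traits of that line cannot be told apart. The p values measure the spread between replicates of these cultures.

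Cells detect foreign or misplaced nucleic acids with sensors such as the endosomal receptor TLR3 and the cytosolic RNA helicase RIG-I, encoded by DDX58. Sensing leads to the release of type I interferon, which acts through its receptor, the kinases JAK1 and TYK2 and a complex that holds STAT2 and IRF9. That complex binds the interferon-stimulated response element (ISRE) of its targets, while the gamma-activated site (GAS) marks genes that respond to interferon gamma. The targets include the ubiquitin-like protein ISG15, the RNA-binding IFIT proteins, the antiviral GTPase MX1 and the RNA-sensing enzyme OAS1. TLR3 and TRIM22 are also known as genes that p53 can activate.

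Promoter sequence from RefSeq (GRCh38.p14) was at hand for 8 of the 9 genes, with DDX58 under its current symbol RIGI. Alternative starts gave 12 windows, each of the 250 bases before a start. Windows with an ISRE match belonged to ISG15, IFIT1, IFIT3 and MX1, 5 of 12 in all. The search used GAAANNGAAA for the ISRE, TTCNNNGAA for the GAS and the p53 decamer by name, on both strands. Over 35114 promoter windows of the same length in that table, 3.02% held the ISRE letters, 6.57% the GAS letters and 5.57% the p53 decamer. GAS matches stood in 3 of the 12 windows, those of TLR3 and OAS1 and 1 of the 3 MX1 windows. The p53 decamer matched in 3, those of DDX58 and ISG15 and 1 of the 2 IFIT3 windows. A match is a description of the letters and not evidence of binding. The ISRE letters need exactly 2 bases between the GAAA runs. Closer GAAA runs, as in the OAS1 window and in windows of IFI16 and MX1, were therefore not counted.

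The 4 sequences below are shown because, in WT cells treated with Nutlin-3a, ISG15 and TLR3 rose, IFIT1 fell and IFIT3 was not called. They are printed 5′ to 3′ with the matched letters in capitals. They lie at chr1:1013247-1013496 (ISG15), chr10:89392373-89392622 (IFIT1), chr10:89332279-89332528 (IFIT3, the second of its 2 starts) and chr4:186068906-186069155 (TLR3), all on the plus strand. In ISG15 a p53 decamer match is followed by 2 overlapping ISRE matches, at bases 113 to 104 and 107 to 98 before the start. In IFIT1 and IFIT3 the ISRE matches lie on the minus strand and are therefore read as TTTC runs. IFIT3 also holds a p53 decamer match, at bases 138 to 129 before the start. TLR3 holds GAS matches alone.
ISG15: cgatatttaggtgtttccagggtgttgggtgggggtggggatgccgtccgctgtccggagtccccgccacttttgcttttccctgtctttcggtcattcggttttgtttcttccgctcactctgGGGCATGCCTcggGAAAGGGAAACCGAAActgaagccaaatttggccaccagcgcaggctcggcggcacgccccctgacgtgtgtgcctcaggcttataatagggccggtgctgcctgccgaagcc
IFIT1: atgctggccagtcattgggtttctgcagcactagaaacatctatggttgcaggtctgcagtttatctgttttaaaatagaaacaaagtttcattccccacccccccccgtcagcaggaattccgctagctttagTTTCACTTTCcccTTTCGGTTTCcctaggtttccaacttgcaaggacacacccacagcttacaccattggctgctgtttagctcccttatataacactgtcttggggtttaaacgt
IFIT3: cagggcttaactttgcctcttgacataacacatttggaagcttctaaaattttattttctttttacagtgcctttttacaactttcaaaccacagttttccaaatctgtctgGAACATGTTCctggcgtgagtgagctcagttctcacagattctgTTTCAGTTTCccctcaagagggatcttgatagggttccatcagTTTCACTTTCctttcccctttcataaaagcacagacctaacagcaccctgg
TLR3: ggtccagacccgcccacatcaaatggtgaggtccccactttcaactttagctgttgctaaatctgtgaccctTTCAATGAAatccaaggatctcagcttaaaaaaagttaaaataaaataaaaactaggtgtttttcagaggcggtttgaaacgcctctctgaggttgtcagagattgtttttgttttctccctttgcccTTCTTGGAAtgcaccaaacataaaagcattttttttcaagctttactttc

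**Figure D1:**
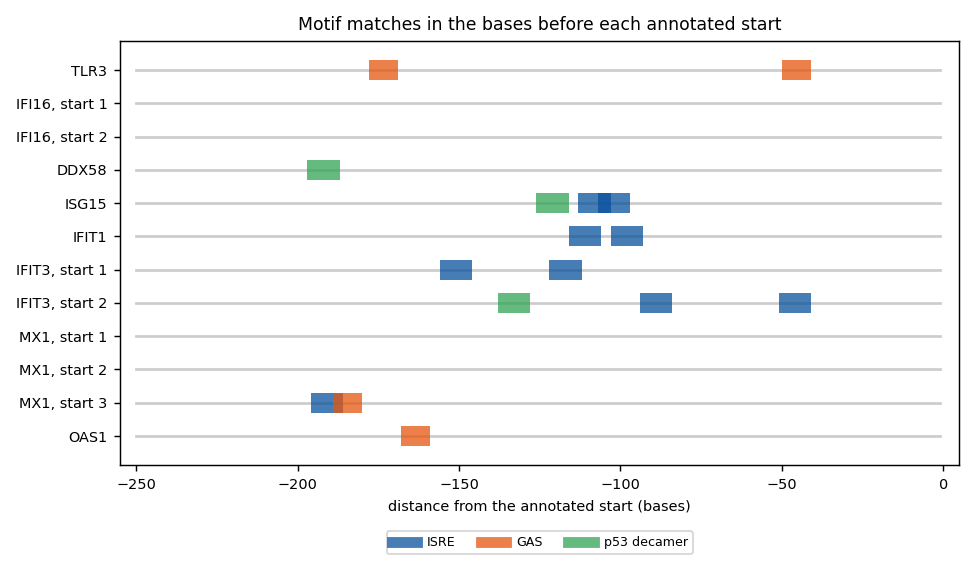
Motif matches in the 250 bases before each annotated start, with 1 line per promoter window and the distance from the start in bases on the horizontal axis. Coloured blocks are matches to the ISRE (blue), the GAS (orange) and the p53 decamer (green). ISRE matches appear in 5 of the 12 windows, in pairs for ISG15, IFIT1 and both starts of IFIT3.

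Libraries held 28390405 to 38010075 reads assigned to genes. FAM193A mRNA was still read in the KO libraries, at 32.2 to 42.0 CPM (counts scaled to the library total) against 40.0 to 50.4 in WT. Within each treatment it was called lower in KO cells, 1.26-fold under DMSO (edgeR adjusted p = 0.000999) and 1.18-fold under Nutlin-3a (edgeR adjusted p = 0.00827). The labels do not say where the gene was edited, so this level does not check the label. The p53 target CDKN1A rose 41.9-fold with Nutlin-3a in WT and 34.8-fold in KO cells. MDM2, the other response control, rose 24.4-fold in WT and 10.4-fold in KO cells. The response in KO minus that in WT cells was -0.27 (log2, SE 0.07) for CDKN1A and -1.23 (SE 0.07) for MDM2. Both differences passed an adjusted p of 0.05 in edgeR's quasi-likelihood test. In each of 3 libraries, namely replicate 2 of WT DMSO, replicate 1 of WT Nutlin-3a and replicate 2 of KO Nutlin-3a, there were 17 to 39 genes with at least 20 reads where the other replicate had 2 or fewer. None of the 9 genes nor of the 135 other interferon-pathway genes listed was among them. All 12 neuroblastoma markers checked, among them HAND2 and MYCN, were read, at a summed 3295 to 4989 CPM. The 9 fibroblast and endothelial markers checked summed to a similar 3784 to 5110 CPM, most of it COL1A1, at 94285 to 170551 reads per library. LUM had 2637 to 11209 reads and the endothelial PECAM1 had 1 to 30. Which cells these reads came from was not tested. Of 14 leukocyte markers, CD3E and CD2 had 0 reads in every library, the pan-leukocyte gene PTPRC had 0 to 34 per library, and 7 had enough reads to be tested. The summed leukocyte level was 14.1 to 17.5 CPM in WT and 10.2 to 13.1 in KO libraries, and CD68 held most of those reads. In bulk libraries, fewer cells expressing a gene and less RNA per cell cannot be told apart.

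Levels were compared between genes per kilobase of gene length, as the authors' RPKM, which scales reads to length and depth. IFI16, a nuclear DNA sensor of the pyrin and HIN domain family, had by far the highest level in every group. Its RPKM averaged 46.9 and 74.1 in WT cells with DMSO and Nutlin-3a, and 94.6 and 97.4 in KO cells. The next gene in WT cells was ISG15, at 8.31 RPKM under DMSO and 15.6 under Nutlin-3a. The lower end of the order was held by OAS1, at 0.159 RPKM with DMSO and 0.0169 with Nutlin-3a in WT cells, except in KO DMSO cells, where TRIM22 was lower on average at 0.107. Replicates of neighbouring genes overlapped for DDX58 and TLR3 in WT DMSO cells and, in KO DMSO cells, for IFIT1 and MX1 and for OAS1 and TRIM22. Nutlin-3a moved TRIM22 in this RPKM order from the eighth place to the fifth in WT cells and from the ninth to the sixth in KO cells.

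**Figure D2:**
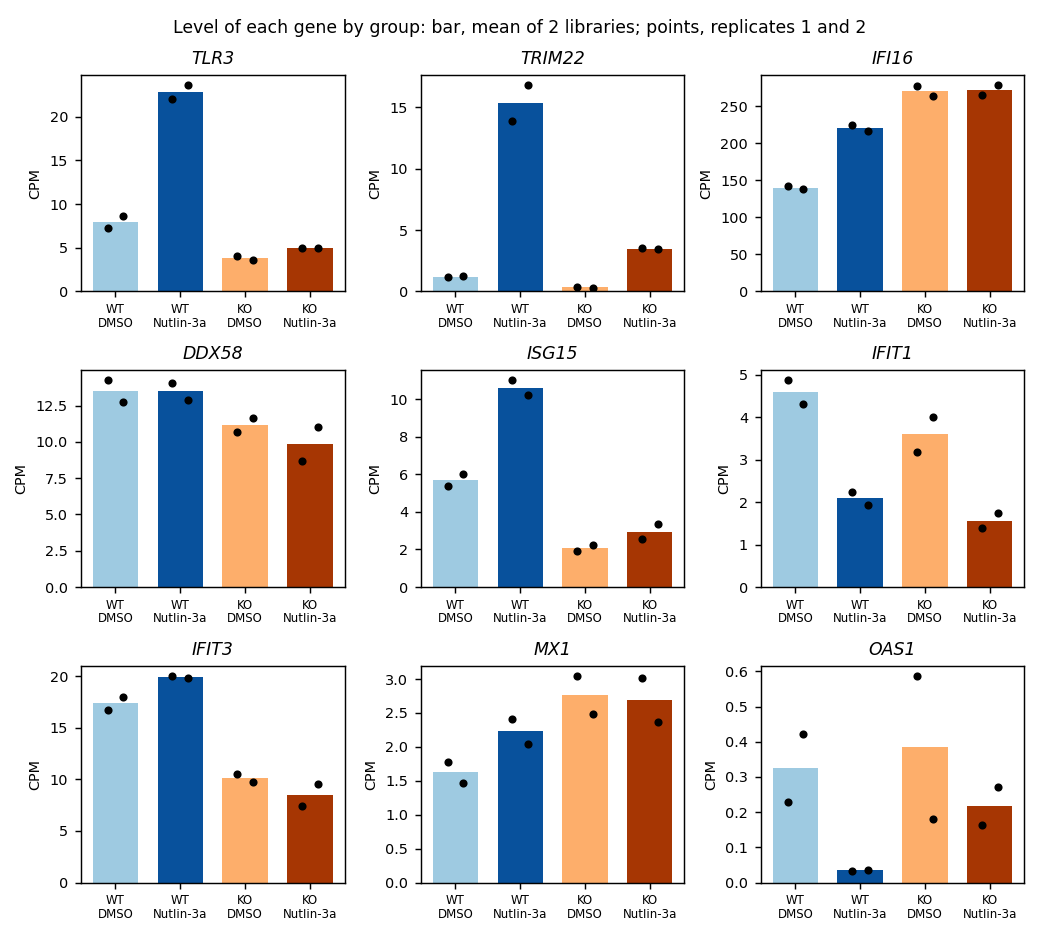
Level of each of the 9 genes in CPM (vertical axes, each starting at 0, scaled separately) in the 4 groups, with bars for the mean of 2 libraries and points for replicates 1 and 2. TLR3 and TRIM22 are highest in WT Nutlin-3a cells, IFI16 is higher in both KO groups than in either WT group, and ISG15 and IFIT3 are lower in both KO groups.

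In WT cells, 12 h of Nutlin-3a changed 6 of the 9 genes. TRIM22, TLR3, ISG15 and IFI16 rose, and IFIT1 and OAS1 fell. The OAS1 call rests on 1 read in each WT Nutlin-3a library, and the gene passed the low-count filter through other groups alone. The background was broad: by the same rule, an adjusted p under 0.05 in edgeR's quasi-likelihood test, 58.6% of all tested genes were called, 29.4% higher and 29.2% lower. The 6 of 9 genes called are therefore near the share of all genes. The median log2 fold change over all 9 was 0.45, beside 0.02 for all tested genes. In KO cells 3 genes rose (TRIM22, TLR3 and ISG15) and IFIT1 fell, where 38.7% of all genes were called, 18.1% higher and 20.6% lower. Here too the 4 of 9 are near the share of all genes. The KO median was -0.03, beside -0.01 for all tested genes.

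**Figure D3:**
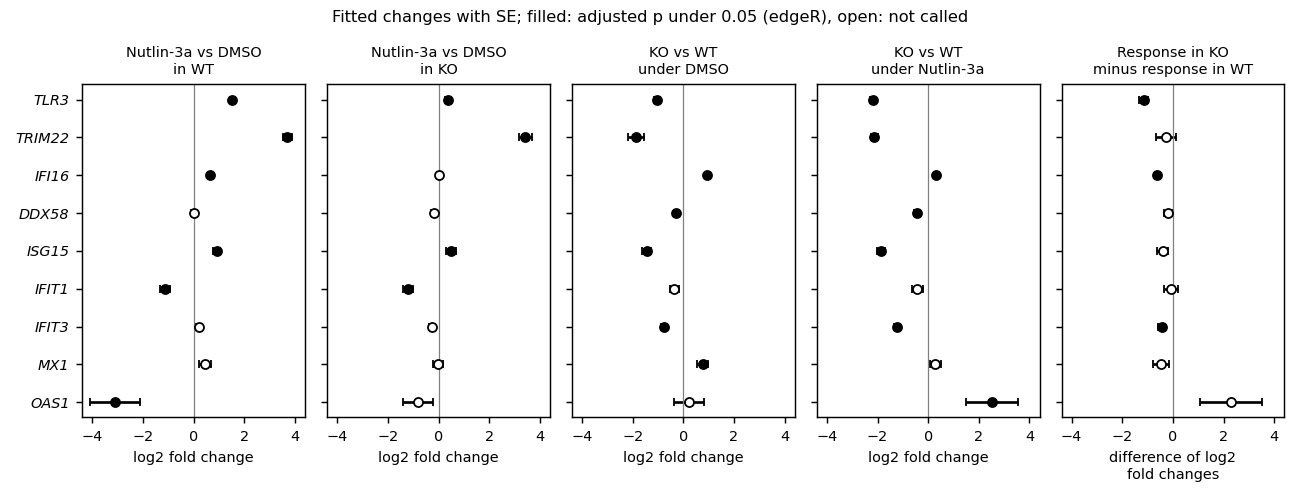
Fitted log2 fold change of each gene with its SE (horizontal axes) in the 5 comparisons, 1 panel each; the right panel is the difference of log2 fold changes. Filled points passed an adjusted p of 0.05 in edgeR's quasi-likelihood test. TRIM22 lies far to the right in both response panels, and TLR3, IFI16 and IFIT3 are the filled points in the panel of the difference.

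Among the sensors, TLR3, the endosomal receptor for double-stranded RNA, had 222 and 245 reads in WT cells given DMSO and 670 and 658 in those given Nutlin-3a. KO cells gave 146 and 140 TLR3 reads, then 183 and 167 with the drug. The 4 groups did not overlap in CPM: both KO groups lay below WT DMSO cells, and WT Nutlin-3a cells lay far above. Nutlin-3a raised TLR3 2.88-fold in WT cells (log2 1.53, SE 0.11, edgeR adjusted p = 6.4e-10), from 7.95 ± 0.92 to 22.9 ± 1.1 CPM (SD, n = 2). In KO cells the change was 1.30-fold (log2 0.37, SE 0.14, edgeR adjusted p = 0.0352). That KO call was lost in 8 of 18 alternative analyses, with adjusted p from 0.0192 to 0.231. Without KO DMSO replicate 1 or 2 the adjusted p was 0.0542 or 0.231, and without either KO Nutlin-3a library it was 0.109 or above. The test of the difference gave a response smaller in KO cells by 1.15 on the log2 scale (SE 0.17, edgeR adjusted p = 7.4e-05). KO cells thus had 2.06-fold less TLR3 mRNA under DMSO and 4.58-fold less under Nutlin-3a.

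IFI16, which binds DNA in the nucleus and cytosol, was the gene with the most reads, 3919 to 10146 per library. WT libraries gave 142 and 138 CPM with DMSO and 224 and 217 CPM with Nutlin-3a. KO libraries gave 278 and 263 CPM, then 265 and 279 CPM with the drug. All KO libraries were above all WT libraries, and the treatments overlapped in KO cells. Nutlin-3a raised IFI16 1.58-fold in WT cells (log2 0.66, SE 0.05, edgeR adjusted p = 1.1e-09). No change was called in KO cells, with a log2 difference of 0.01 (SE 0.05, edgeR adjusted p = 0.911). The difference of the responses was -0.65 (log2, SE 0.07, edgeR adjusted p = 1.24e-06). KO cells exceeded WT cells 1.93-fold under DMSO and 1.23-fold under Nutlin-3a.

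DDX58, whose product RIG-I recognises viral RNA ends in the cytosol, had 359 to 433 reads in the WT libraries. Its level was 13.5 CPM in both WT groups, with SD of 1.07 under DMSO and 0.80 under Nutlin-3a. The fitted log2 change in WT cells was 0.00 (SE 0.12), and in KO cells it was -0.18 (SE 0.12), neither of them called. KO cells lay below WT cells 1.21-fold under DMSO (edgeR adjusted p = 0.0453) and 1.38-fold under Nutlin-3a (edgeR adjusted p = 0.00224). The call under DMSO was lost in 8 of 18 alternatives (adjusted p from 0.00539 to 0.291), among them those without WT DMSO replicate 1 (0.291), KO DMSO replicate 1 (0.235) or KO DMSO replicate 2 (0.0674). The call under Nutlin-3a was lost in 2 of 18 (4.2e-05 to 0.0698), 1 of them without KO Nutlin-3a replicate 1 (0.0630). Without KO Nutlin-3a replicate 2, the KO response was called as a fall of 0.36 on the log2 scale (adjusted p = 0.0463).

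TRIM22, an interferon-inducible ubiquitin ligase that restricts several viruses, showed the widest called change of the 9 genes with Nutlin-3a. Both WT DMSO libraries held 35 reads of it, and those with Nutlin-3a held 422 and 468. In KO cells 14 and 10 reads became 129 and 116. No group overlapped another in CPM. The rise was 12.9-fold in WT cells (log2 3.69, SE 0.18, edgeR adjusted p = 1.8e-12) and 10.7-fold in KO cells (log2 3.42, SE 0.25, edgeR adjusted p = 3.0e-09). The difference of the responses was not called on counts (log2 -0.27, SE 0.39, edgeR adjusted p = 0.666). With limma-trend it was called at -0.75 on log2(RPKM + 0.1) and -1.11 on log2(RPKM + 1), scales that understate changes of low values. KO cells started lower, 3.65-fold under DMSO, and stayed lower, 4.39-fold under Nutlin-3a.

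TRIM22 overlaps TRIM5, another antiviral TRIM gene, on the opposite strand, and the strand setting of the counting is not given in the sources used here. With Nutlin-3a, mean TRIM5 rose from 17.0 to 43.9 CPM (WT) and from 21.9 to 30.3 CPM (KO). Under DMSO the 2 genes differed in direction between genotypes, with TRIM22 lower in KO cells and TRIM5 higher (log2 0.37, SE 0.08, edgeR adjusted p = 0.000371). Under Nutlin-3a both were lower in KO cells, TRIM5 by 0.54 (log2, SE 0.07, edgeR adjusted p = 1.4e-06). The difference of the responses was called for TRIM5 (log2 -0.90, SE 0.10, edgeR adjusted p = 2.8e-06) and not for TRIM22. Whether reads of one were counted for the other was not tested. The IFIT1 and IFIT3 loci overlap LIPA, also on the opposite strand, and LIPA was called in none of the 5 comparisons.

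Of the interferon effectors, ISG15 encodes a ubiquitin-like protein that is conjugated to newly made proteins. WT cells gave 164 and 171 reads with DMSO and 334 and 285 with Nutlin-3a. KO cells gave 68 and 87 reads, then 94 and 111 with the drug. In CPM the 4 groups did not overlap, and both KO groups lay below both WT groups. ISG15 rose 1.87-fold with Nutlin-3a in WT cells (log2 0.90, SE 0.14, edgeR adjusted p = 2.3e-05). In KO cells it rose 1.41-fold (log2 0.49, SE 0.18, edgeR adjusted p = 0.0408), a call lost in 7 of 18 alternatives (adjusted p from 0.0163 to 0.331). Leaving out KO DMSO replicate 1 gave 0.233, KO DMSO replicate 2 gave 0.0606, KO Nutlin-3a replicate 2 gave 0.331, and each WT DMSO library 0.0517 or 0.0523. The difference of the 2 responses was not called (log2 -0.41, SE 0.23, edgeR adjusted p = 0.214). KO cells had 2.73-fold less ISG15 mRNA under DMSO and 3.62-fold less under Nutlin-3a.

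IFIT1 and IFIT3 encode partner proteins that bind foreign RNA, and their genes lie close together on chromosome 10. IFIT1 fell with Nutlin-3a in both genotypes, while no change of IFIT3 was called. IFIT1 went from 148 and 123 reads in WT cells with DMSO to 68 and 54 with Nutlin-3a. KO cells gave 114 and 154 reads, then 51 and 58 with the drug. IFIT1 was lower in every Nutlin-3a library than in any DMSO library. The fall was 2.19-fold in WT cells (log2 -1.13, SE 0.20, edgeR adjusted p = 7.0e-05) and 2.31-fold in KO cells (log2 -1.21, SE 0.20, edgeR adjusted p = 9.2e-05). Genotype differences of IFIT1 were not called, at -0.35 under DMSO and -0.43 under Nutlin-3a on the log2 scale.

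IFIT3 had 510 and 513 reads in WT cells with DMSO and 608 and 552 with Nutlin-3a. KO cells gave 376 and 375 reads, then 275 and 318 with the drug. In CPM all 4 KO libraries, at 7.47 to 10.5, lay below all 4 WT libraries, whose lowest had 16.8. The log2 change with Nutlin-3a was 0.20 (SE 0.10, edgeR adjusted p = 0.105) in WT and -0.25 (SE 0.11, edgeR adjusted p = 0.0894) in KO cells, so no change was called in either genotype. The difference of the responses was called at -0.45 (log2, SE 0.15, edgeR adjusted p = 0.0349), but not in 9 of 17 alternatives (adjusted p from 0.000608 to 0.202). Without WT DMSO replicate 1 or 2 it was 0.126 or 0.0574, without KO DMSO replicate 1 or 2 it was 0.141 or 0.0595, and without KO Nutlin-3a replicate 1 it was 0.202. Without KO Nutlin-3a replicate 2 the KO change was called as a fall of 0.44 on the log2 scale. KO cells had 1.72-fold less IFIT3 mRNA under DMSO and 2.35-fold less under Nutlin-3a.

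MX1, a dynamin-like GTPase that blocks viral replication, had 42 to 73 reads in WT and 79 to 111 in KO libraries. KO DMSO libraries, at 3.05 and 2.49 CPM, lay above WT DMSO libraries, at 1.77 and 1.47 CPM. Under Nutlin-3a, KO libraries at 3.01 and 2.37 CPM overlapped WT libraries at 2.41 and 2.05 CPM. MX1 was 1.70-fold higher in KO cells under DMSO (log2 0.76, SE 0.22, edgeR adjusted p = 0.00647), a call lost in 2 of 18 alternatives (adjusted p up to 0.0712), those without WT DMSO replicate 2 (0.0632) and without KO DMSO replicate 1 (0.0712). No other comparison of MX1 was called, with a log2 change of 0.45 (SE 0.24) with Nutlin-3a in WT cells and -0.03 (SE 0.20) in KO cells.

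OAS1, which makes the 2-5A messenger that activates RNase L on sensing double-stranded RNA, was near the limit of detection. WT libraries held 7 and 12 reads with DMSO and 1 each with Nutlin-3a. KO libraries held 21 and 7, then 6 and 9 with the drug. The gene passed the low-count filter through groups other than WT Nutlin-3a. Per read total, WT Nutlin-3a cells had 0.107 times the WT DMSO level, with a 95% counting interval of 0.0120 to 0.442, and the change was called lower (edgeR adjusted p = 0.0114). KO exceeded WT cells 6.22-fold under Nutlin-3a (counting interval 1.45 to 56.1), called at an edgeR adjusted p of 0.0428. That last call was lost in 12 of 18 alternatives (adjusted p from 0.0260 to 0.258), and the WT response in 3 of 18 (0.00623 to 0.149), 1 of them without WT DMSO replicate 2 (0.0927). The KO excess under Nutlin-3a was lost without WT DMSO replicate 2 (0.0512), either WT Nutlin-3a library (0.115 and 0.0964) or either KO Nutlin-3a library (0.0554 and 0.180). Intervals cover counting error only.

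**Figure D4:**
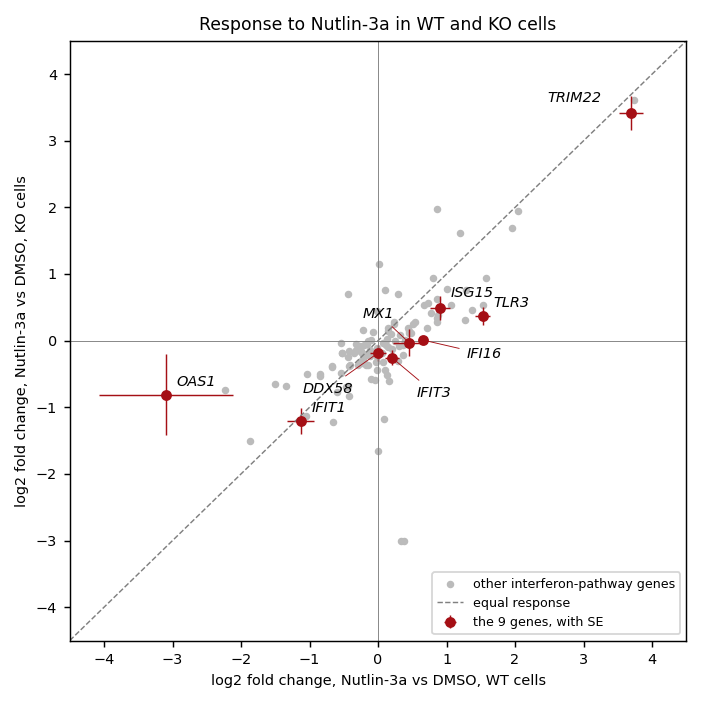
Response to Nutlin-3a in KO cells (vertical axis, log2 fold change) against that in WT cells (horizontal axis). The 9 genes are red with SE bars, the 112 other tested interferon-pathway genes are grey, and the dashed line marks equal responses. TLR3 and IFI16 lie below the line, with differences of -1.15 and -0.65, while TRIM22, at 3.69 and 3.42, lies near it.

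The KO and WT responses share no library, so their difference could be tested gene by gene. Of the 9 genes, 3 were called lower (TLR3, IFI16 and IFIT3) and 0 higher, where 27.5% of all tested genes were called, 14.2% higher and 13.4% lower. The median difference over the 9 was -0.41 on the log2 scale. The higher count was also 0 at an unadjusted p under 0.05 and in the limma fits. In the DESeq2 fit it was 0 too, but OAS1 had no adjusted p there and could not be called. No test was made on these counts. OAS1 was the 1 gene with a positive difference, 2.29 (SE 1.22), not called and resting on the 2 reads of the WT Nutlin-3a group.

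Between genotypes, 7 of the 9 genes were called under each treatment. Under DMSO IFI16 and MX1 were higher in KO cells and TLR3, TRIM22, DDX58, ISG15 and IFIT3 lower. There 61.5% of all tested genes were called, 31.4% higher and 30.1% lower. Under Nutlin-3a IFI16 and OAS1 were higher and the same 5 genes lower, where 63.1% of all genes were called, 32.7% higher and 30.4% lower. The OAS1 call there rests on 2 reads in the WT group and was lost in 12 of 18 alternatives. With limma-trend on log2(RPKM + 0.1) the split over all genes under Nutlin-3a was 6167 higher and 3756 lower, beside 5190 and 4822 in edgeR. The 5 lower genes are 55.6% of the 9, a count on which no test was made. The median log2 difference of the 9 genes was -0.35 under DMSO and -0.46 under Nutlin-3a, beside 0.01 and 0.02 for all tested genes. These comparisons share their libraries with the responses above and are not independent of them.

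Some close relatives of the 9 genes were read for the same comparisons, a set named after its values were seen and not complete. IFIH1 encodes MDA5, the second RNA helicase sensor beside RIG-I, and like DDX58 was called in neither response and lower in KO cells, by 0.59 under DMSO and 1.02 under Nutlin-3a on the log2 scale. DHX58 encodes LGP2, the regulator of both helicases, and rose with Nutlin-3a by 0.80 in WT and 0.95 in KO cells (log2), from a level lower in KO cells by 1.74. IFIT2 fell with Nutlin-3a in KO cells by 0.61 (log2, SE 0.15, edgeR adjusted p = 0.00267), was at 0.16 in WT cells without a call, and had a called difference of responses of -0.77 (SE 0.20). MX2 fell with Nutlin-3a by 0.66 in WT and 1.22 in KO cells (log2), where MX1 was not called. MX2 differed in direction from MX1 between genotypes, at -1.51 under DMSO and -2.08 under Nutlin-3a (log2, both called), while MX1 was at 0.76 (called) and 0.28 (not called). OAS3 had far more reads than OAS1, 126 to 816 per library, and fell with Nutlin-3a by 1.06 in WT and 1.12 in KO cells (log2). OAS3 was also lower in KO cells, by 1.62 under DMSO and 1.69 under Nutlin-3a on the log2 scale. OASL had 0 reads in all libraries and OAS2 had 14 in total. AIM2, a relative of IFI16, was lower in KO cells under DMSO (log2 -4.15), where IFI16 was higher. PYHIN1 rose in WT cells with Nutlin-3a (log2 3.73), but passed the low-count filter through that group alone, at 14 and 15 reads. IFIT5 fell with Nutlin-3a by 0.27 in WT and 0.16 in KO cells (log2, both called). It was lower in KO cells by 0.41 under DMSO. TRIM6 and TRIM34 were called in neither response.

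The rest of the pathway was read through 135 other genes in 3 lists, of which 112 were tested. Of the 28 tested sensing genes, 9 rose and 6 fell with Nutlin-3a in WT cells, and 5 rose and 5 fell in KO cells. These are 32.1% and 21.4% of the list in WT cells and 17.9% each way in KO cells, near the shares of all genes (29.4% and 29.2%, then 18.1% and 20.6%). The DNA-sensing adaptor TMEM173 (STING) rose 1.81-fold in WT and 1.53-fold in KO cells, and the kinase TBK1 rose 1.59-fold and 1.45-fold. The transcription factor IRF3 fell 1.34-fold in WT cells. Between genotypes 19 sensing genes were lower and 3 higher in KO cells under DMSO, with a median of -0.43, and 20 lower and 3 higher under Nutlin-3a. The lower shares, 67.9% and 71.4%, stand beside 30.1% and 30.4% of all tested genes. The higher share, 10.7% under each treatment, stands beside 31.4% and 32.7%. The median over all tested genes was 0.01 under DMSO and 0.02 under Nutlin-3a. MYD88, the adaptor of most Toll-like receptors though not of TLR3, was far lower in KO cells, with 0.227 CPM beside 20.1 in WT cells under DMSO (log2 -6.43, SE 0.19, edgeR adjusted p = 1.6e-15). The kinase IKBKE and the receptors TLR4 and TLR6 were lower by 3.37, 1.35 and 1.18 on the log2 scale. IRF7, the interferon-inducible regulator of interferon genes, was higher at 1.40 (log2, SE 0.22). TLR7 had 0 reads in the 4 WT libraries and 44 in KO DMSO cells. AIM2 had 15 to 20 reads in each WT library and 0 to 2 in each KO library. Such genes passed the low-count filter through a single genotype, so their direction in these counts was fixed by it.

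Of the 20 tested signalling genes, 8 rose and 3 fell with Nutlin-3a in WT cells, and 4 rose and 9 fell in KO cells. That is 40% and 15% of the list in WT cells, beside 29.4% and 29.2% of all genes, and 20% and 45% in KO cells, beside 18.1% and 20.6%. STAT2, a subunit of the complex that binds the ISRE, rose 2.40-fold in WT and 1.24-fold in KO cells, and STAT3 rose by 1.54 and 0.53 on the log2 scale. Both differences of responses were called, at -0.96 for STAT2 and -1.01 for STAT3 on the log2 scale (SE 0.09 and 0.07). IRF1, an activator of antigen presentation and antiviral genes, rose 1.22-fold in WT and fell 1.23-fold in KO cells. KO cells had 4.26-fold less IRF1 mRNA under DMSO and 6.40-fold less under Nutlin-3a. USP18, the protease that removes ISG15 from proteins, fell 1.80-fold in WT and 1.45-fold in KO cells, while ISG15 itself rose. Over the signalling list, KO cells were higher for 10 and lower for 4 genes under DMSO, with a median of 0.18, and higher for 5 and lower for 9 under Nutlin-3a, with a median of -0.10. That is 50% higher and 20% lower under DMSO, beside 31.4% and 30.1% of all genes. Under Nutlin-3a it is 25% higher and 45% lower, beside 32.7% and 30.4%.

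Of the 64 tested effectors, 17 rose and 22 fell with Nutlin-3a in WT cells, and 15 rose and 23 fell in KO cells. The WT shares, 26.6% and 34.4%, are close to those of all genes (29.4% and 29.2%), and the KO shares were 23.4% and 35.9%, beside 18.1% and 20.6%. TAP1, which carries peptides to MHC class I molecules, rose 4.12-fold in WT and 3.85-fold in KO cells. APOBEC3C, a cytidine deaminase that restricts retroviruses, rose 3.88-fold and 3.23-fold, and PML, the organiser of nuclear bodies, 1.71-fold and 1.33-fold. PLSCR1 fell 2.06-fold and 1.42-fold. Between genotypes 37 effectors were lower and 11 higher in KO cells under DMSO, with a median of -0.34. Under Nutlin-3a 45 were lower and 10 higher, with a median of -0.51. The lower shares, 57.8% and 70.3%, stand beside 30.1% and 30.4% of all genes, and the higher shares, 17.2% and 15.6%, beside 31.4% and 32.7%. BST2, the tethering factor of enveloped viruses, was 13.0-fold lower and TAP1 5.02-fold lower in KO cells under DMSO. PARP9 was 2.54-fold higher and RSAD2, the antiviral enzyme viperin, 4.64-fold higher, from 0.443 to 2.06 CPM. RTP4 and XAF1, with 0 or 1 read in each KO library, passed the low-count filter through WT cells alone. Their direction between genotypes was therefore fixed by it.

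Counted together, 34 of the 112 other genes rose and 31 fell in the WT response, and 24 rose and 37 fell in the KO response. The WT shares, 30.4% and 27.7%, are near the background of 29.4% and 29.2%, and the KO shares were 21.4% and 33.0%, beside 18.1% and 20.6%. Under DMSO 60 were lower and 24 higher in KO cells, and under Nutlin-3a 74 were lower and 18 higher. These counts include the genes that passed the low-count filter through a single genotype. The lower share, 53.6% under DMSO and 66.1% under Nutlin-3a, can be read beside 30.1% and 30.4% of all genes. The higher share, 21.4% and 16.1%, can be read beside 31.4% and 32.7%. In the difference of responses, 22 were lower and 10 higher. Those are 19.6% and 8.93% of the 112, beside 13.4% and 14.2% of all genes. Of 8 interferon genes checked, 5 had 0 reads and the 8 together had 10 reads among 260996466, so none was tested. The summed leukocyte marker level, mostly CD68, was also lower in KO libraries, and CSF1R was called lower under both treatments. Other markers went the other way: PTPRC was called higher in KO cells, with 55 reads beside 7 under DMSO and 60 beside 2 under Nutlin-3a, and LYZ 3.98-fold higher under Nutlin-3a. Their part in these counts was not tested.

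**Figure D5:**
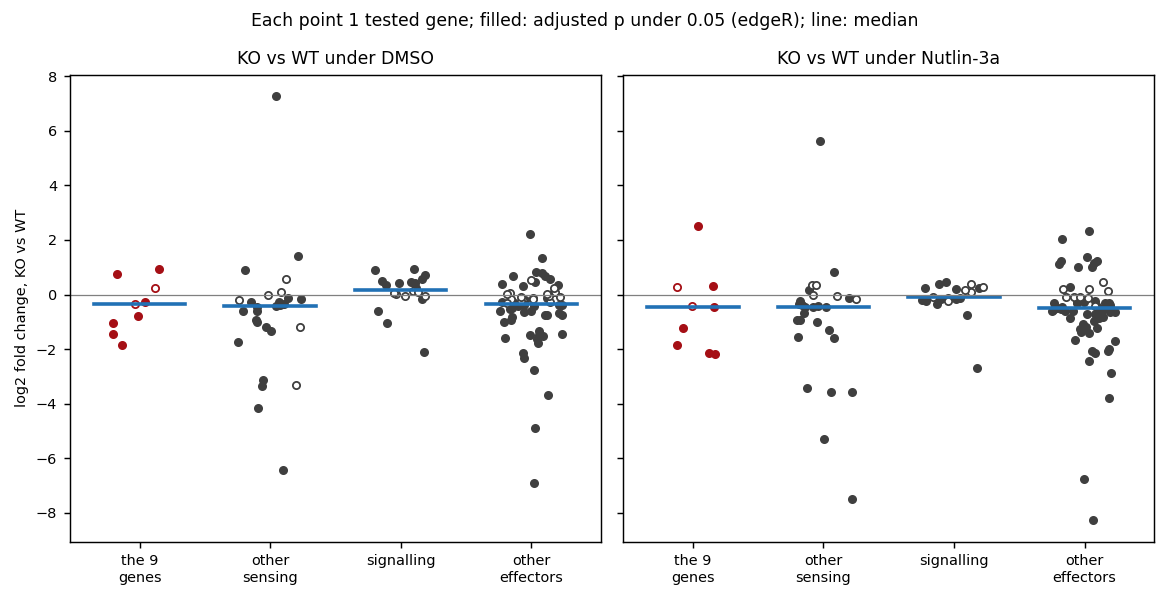
Log2 fold change of KO against WT cells (vertical axis) for each tested gene under DMSO (left) and Nutlin-3a (right), in the 9 genes and the 3 lists of other interferon-pathway genes. Filled points passed an adjusted p of 0.05 in edgeR's quasi-likelihood test, and the blue line is the median. The medians of the 9 genes, the sensing list and the effector list lie below 0 in both panels, and that of the signalling list lies at 0.18 under DMSO and -0.10 under Nutlin-3a.

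The genes whose level across the 8 libraries was most like that of each member were listed as a description, by Pearson correlation of log2 CPM over 10506 genes. The 8 points are 4 groups of 2, so any gene with the same group pattern ranks high. LACC1 was nearest to TLR3 (r = 0.997), PVRL1 to TRIM22 (0.998), FAM8A1 to IFI16 (0.996), MR1 to ISG15 (0.997), SORD to IFIT1 (0.994) and THBS1 to IFIT3 (0.993). The low or little-changed genes had looser neighbours, ENDOV for MX1 (0.969), NDUFB5 for DDX58 (0.978) and TCTEX1D2 for OAS1 (0.984, over 10507 genes). Among the 9 genes, TLR3 and ISG15 were the nearest pair (0.962), followed by IFI16 and MX1 (0.908). IFIT1 and OAS1 had no close counterpart among them, with highest values of 0.55 and 0.441.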

How the data were processed

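Poly(A) RNA of CHP212 cells was measured in 8 strand-specific libraries, per the labels' protocols. Sample titles gave the groups and replicate numbers, and each table column was tied to its sample by name. The submitters' processing notes list HTSeq 0.8.0, TopHat2 2.1.1, Bowtie2 2.2.9.0, Picard 2.9.4, SAMtools 1.5, FastQC 0.11.5 and bcl2fastq, and name GRCh37 (hg19). No source used here gives the annotation or the strand setting, so reads of genes that overlap may be miscounted. The authors deposited whole read counts for 25369 genes, and RPKM values that scale those counts to gene length and depth. For 16048 of 16048 genes checked, the deposited tables implied a whole-number length, within 0.001 bases.

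The counts were fitted with edgeR 4.0.16 (R 4.3.3) as 4 group means over 8 libraries, which left 4 residual degrees of freedom. filterByExpr kept 15879 genes and removed 9490, and totals were scaled by TMM, also for CPM. Robust quasi-likelihood F tests were made for 5 comparisons, and p values were adjusted by Benjamini-Hochberg over all tested genes (threshold 0.05). The common biological coefficient of variation was 0.0424. Library totals of 28390405 to 38010075 reads set the precision, and ratios of summed reads carry exact 95% counting intervals. Within groups, replicates varied beyond counting noise (chi-square per gene of 2.34 to 8.81). Nothing in the labels says that a replicate number pairs libraries, so the numbers were not treated as pairs. Deviations of libraries with the same number correlated at -0.02 to 0.23 between groups, highest for WT DMSO and KO Nutlin-3a.

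All 9 members are described. Of each list of other genes, up to 4 called genes per direction and comparison, by smallest p, could be named. Members and lists were chosen with earlier results of these data known. Neighbours by correlation had a mean log2 CPM of at least 1. The alternatives used DESeq2 1.42.0 (size factors, Wald test), upper-quartile factors, all genes without a low-count filter, the replicate block, 4-library fits, limma 3.58.1 trend fits on log2(RPKM + 0.1) and log2(RPKM + 1), a threshold of 0.01 and libraries left out. The edgeR step was tested on simulated data. RefSeq promoters (GRCh38.p14) served for sequence alone, and gene overlaps are those of GENCODE v29.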

Additional observations from a re-analysis of the deposited data

Results flagged for a closer look

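Under the test of the difference itself, the response to Nutlin-3a differed between KO and WT cells for 3 of the 9 genes. The difference (KO minus WT, log2) was -1.15 for TLR3, which rose in both genotypes, and -0.65 for IFI16, which rose in WT cells alone. It was -0.45 for IFIT3, whose response was called in neither genotype. TLR3 and IFI16 were called in all 17 alternatives, with ranges of -1.34 to -0.99 and -0.69 to -0.61. IFIT3 was called in 8 of 17.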

How the results depend on the processing

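Of the 9 genes, TRIM22 and IFIT1 in both genotypes and TLR3, ISG15 and IFI16 in WT cells kept their called response in all 18 alternatives at the same threshold, and so did the lower TLR3, TRIM22, ISG15 and IFIT3 and the higher IFI16 in KO cells. Counts of a few called genes moved easily. Members lower in the WT response numbered 1 with limma-trend on log2(RPKM + 1), with 5 libraries (the 3 with reads of unrelated genes left out) and at a threshold of 0.01, and 1 to 2 with single libraries left out. Members higher in the KO response numbered 1 with the DESeq2 Wald test, with 5 libraries and at 0.01 (1 to 3 with libraries left out), and members lower numbered 2 without the low-count filter and 3 with 5 libraries (1 to 3). Members higher in KO cells numbered 1 to 2 under DMSO with libraries left out. Under Nutlin-3a they numbered 1 without the filter, with the DESeq2 Wald test, with all 3 limma-trend fits, with 5 libraries and at 0.01 (1 to 2). Of the other interferon-pathway genes, those lower in the KO response numbered 20 with limma-trend on log2(RPKM + 0.1) without a low-value filter (21 to 42 with libraries left out). In the difference of responses 2 were higher at 0.01 (4 to 11), and 14 were lower with the same limma-trend fit (13 to 28). The cause of these shifts was not tested.

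Some uncalled values changed sign. DDX58 in the WT response was -0.00363 without the filter and -0.11 with 5 libraries (-0.0771 to 0.0851 with libraries left out). In the KO response IFI16 was -0.00383 without the filter and -0.0136 with 5 libraries (-0.0300 to 0.0477), MX1 was 0.14 with 5 libraries (-0.22 to 0.13) and OAS1 was -1.43 to 0.24 with libraries left out. OAS1 in KO against WT cells under DMSO was -0.82 to 0.85 with libraries left out. In the difference of responses TRIM22 was -0.54 to 0.0453 with libraries left out (-1.11 to 0.0453 over all alternatives), and IFIT1 was 0.00178 with limma-trend on log2(RPKM + 0.1), with or without the filter, and 0.0436 on log2(RPKM + 1) (-0.24 to 0.10). OAS1, at 1 to 21 reads per library, and MX1, at 42 to 111, are limited by depth.

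With the replicate number as a block, members higher in KO cells under Nutlin-3a numbered 1, since OAS1 missed the threshold (edgeR adjusted p = 0.0526), and no other call of the 9 genes changed. The difference of responses has no fit of 4 libraries.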
